A study of Mus musculus with 6 samples.

Results

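The sarcomere is the repeating contractile unit of striated muscle, and 45 genes that encode its filaments, their anchors and the proteins that serve them are described here in 661W cells, out of 38776 genes with a count row. 661W is a mouse line described as derived from cone photoreceptors, and it stands for a single immortalised line. RNA was sequenced from cultures of passages 24, 26 and 27, and each passage gave 1 serum-fed culture, with 10% fetal calf serum throughout, and 1 serum-starved culture, kept without serum for the last 72 h, so n = 3 per condition. All 6 cultures grew in the same high-glucose medium and carried no other treatment. The 45 genes were matched by gene name, and they had been chosen by the measured values of these same 6 libraries, namely the starved-over-fed ratio within each passage and the level by passage. Their ratios and levels are therefore given as a description, and where a fit over all genes also called members, only the count is given and nothing is read from it. The libraries were made from whole cultures, so more cells that carry a muscle messenger and more of that messenger per cell cannot be told apart.

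In the sarcomere, thick filaments of myosin pull on thin filaments of actin, and each myosin molecule joins heavy chains, which hold the motor, to essential and regulatory light chains. Calcium frees the thin filament for myosin through the troponin complex, in which troponin C binds calcium, troponin I inhibits and troponin T holds the complex to tropomyosin. Z-discs anchor the thin filaments, the M-band crosslinks the thick filaments, and titin spans from one to the other. Most of these proteins exist as embryonic, fast, slow or cardiac forms from separate genes, and muscle cells in culture switch them on when they leave the cell cycle and fuse. Withdrawal of serum is the usual way to start that step in myoblasts, while in 661W cells it was used to make the cells leave the cell cycle and grow cilia.

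Promoters of some members are printed below, picked for their counts or for the letters of muscle gene control that they hold. Each sequence runs from 250 bases before to 50 bases after the gene's RefSeq start, on build GRCm38.p6, and RefSeq promoters of 35 of the 45 members were matched by symbol. Capitals mark matches on either strand to CAGCTG and CACCTG, forms of the E-box that MyoD-family factors bind, to CATTCC, the element of TEAD factors, to TATAAA, and to the MEF2 motif and the CArG box of serum response factor. Actc1 and Acta1 are shown for their CArG boxes, Myh3 as the myosin heavy chain with most counts, Mylpf and Tnnt2 for their CAGCTG matches, Casq2 for its MEF2 match and Tnnc2 for its CACCTG match.
Acta1, chr8:123894726-123895025, minus strand: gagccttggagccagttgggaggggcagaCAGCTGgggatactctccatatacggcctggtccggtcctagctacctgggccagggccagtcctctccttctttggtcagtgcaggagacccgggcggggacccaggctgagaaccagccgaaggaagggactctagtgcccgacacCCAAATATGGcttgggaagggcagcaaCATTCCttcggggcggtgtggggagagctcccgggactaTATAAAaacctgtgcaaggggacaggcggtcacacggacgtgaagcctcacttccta
Actc1, chr2:114052826-114053125, minus strand: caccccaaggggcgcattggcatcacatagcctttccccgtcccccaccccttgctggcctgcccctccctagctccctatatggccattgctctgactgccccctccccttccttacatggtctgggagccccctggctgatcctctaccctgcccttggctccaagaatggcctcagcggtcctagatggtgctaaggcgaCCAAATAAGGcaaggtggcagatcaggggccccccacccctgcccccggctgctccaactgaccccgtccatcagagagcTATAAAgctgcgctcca
Myh3, chr11:67078050-67078349, plus strand: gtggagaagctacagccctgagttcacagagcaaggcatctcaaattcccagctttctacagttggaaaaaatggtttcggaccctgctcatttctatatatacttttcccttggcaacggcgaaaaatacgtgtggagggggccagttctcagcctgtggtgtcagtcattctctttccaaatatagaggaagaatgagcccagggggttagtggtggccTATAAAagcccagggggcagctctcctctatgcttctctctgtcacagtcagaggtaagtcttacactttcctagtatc
Mylpf, chr7:127211358-127211657, plus strand: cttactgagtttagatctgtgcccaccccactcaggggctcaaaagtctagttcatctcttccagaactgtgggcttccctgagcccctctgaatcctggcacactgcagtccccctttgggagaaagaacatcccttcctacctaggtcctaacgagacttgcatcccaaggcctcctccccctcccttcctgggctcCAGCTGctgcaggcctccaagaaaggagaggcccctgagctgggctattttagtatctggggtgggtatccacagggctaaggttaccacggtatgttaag
Casq2, chr3:102086165-102086464, plus strand: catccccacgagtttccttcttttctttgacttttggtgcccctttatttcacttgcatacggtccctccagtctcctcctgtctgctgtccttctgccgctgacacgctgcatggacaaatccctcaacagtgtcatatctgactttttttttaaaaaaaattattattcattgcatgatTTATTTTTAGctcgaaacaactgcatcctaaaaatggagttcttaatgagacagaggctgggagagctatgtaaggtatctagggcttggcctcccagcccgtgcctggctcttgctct
Tnnc2, chr2:164779685-164779984, minus strand: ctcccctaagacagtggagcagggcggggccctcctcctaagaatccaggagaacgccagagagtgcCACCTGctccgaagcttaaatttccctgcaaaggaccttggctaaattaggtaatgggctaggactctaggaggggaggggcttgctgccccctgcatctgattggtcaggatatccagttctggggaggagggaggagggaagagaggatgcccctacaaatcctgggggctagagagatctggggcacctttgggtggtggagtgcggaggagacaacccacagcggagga
Tnnt2, chr1:135836084-135836383, plus strand, the upstream of its listed starts: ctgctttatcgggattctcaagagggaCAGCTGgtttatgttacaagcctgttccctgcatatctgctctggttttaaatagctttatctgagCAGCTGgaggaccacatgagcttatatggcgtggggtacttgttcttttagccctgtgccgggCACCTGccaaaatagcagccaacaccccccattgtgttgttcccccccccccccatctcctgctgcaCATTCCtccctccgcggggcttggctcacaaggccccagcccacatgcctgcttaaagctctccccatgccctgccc
Counted from the listed RefSeq start as 0, the CArG box began at −73 in Acta1 and at −47 in Actc1. Of 44 member promoters, 13.6% held a CArG box, against 1.63% of 32851 promoters in the whole table. The MEF2 motif was in 13.6% of the member promoters and 3.19% of all promoters. CAGCTG was in 34.1% against 16.3%, and CACCTG in 29.5% against 20.2%. CATTCC was in 29.5% against 14.7%, and TATAAA in 25% against 13.6%. In Myh1 and in Myh8 the MEF2 match and a TATAAA match overlap. Some members have several listed starts whose windows overlap, and a match of letters is not a binding site.

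Counts were divided by the total of the library and multiplied by 1e6 (CPM). Libraries held 71970076 to 87178722 counts, so where no read was counted the level may still be as high as 3 counts, or 0.0344 to 0.0417 CPM by counting error alone. The table of counts does not pair names with positions, so positions and exon lengths are those of GENCODE M21 on GRCm38. A positive log2 fold change means more in serum-starved cells, and it comes from edgeR's quasi-likelihood fit with the passage as a block. It is given with a standard error (SE), taken as its absolute value divided by the square root of the test's F statistic. The 661W libraries held little RNA of cone markers: 5 of 13 were counted often enough to be tested and 0 passed in edgeR (1 at p under 0.05 before adjustment, 0 by DESeq2 or limma-voom), the sum over the 13 was 2.46 to 4.35 CPM in serum-fed and 3.02 to 3.45 CPM in serum-starved cells, and cone arrestin Arr3 had 0 counts in every library.

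Summed over the 45 members, the level was 89.7, 307 and 127 CPM in serum-fed cells of passages 24, 26 and 27, and 118, 1258 and 419 CPM in serum-starved cells. The starved culture was thus higher in each passage, 1.31-fold in passage 24, 4.09-fold in passage 26 and 3.31-fold in passage 27. Both cultures of passage 24 lay below both cultures of passage 26, and the sum in starved cells of passage 26 was 10.7-fold that of passage 24. Tnnt2, the cardiac form of troponin T, held 34.9 CPM of the sum in serum-fed cells of passage 24. Without it the starved sum was 1.85-fold, 4.77-fold and 3.48-fold that of fed cells in passages 24, 26 and 27.

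Of the 45 members, 34 reached a mean of 0.25 CPM in both conditions and 32 a mean of 1 CPM in starved cells, and 39 passed the filter on low counts. The 6 that did not are Myh2 (fast myosin heavy chain), Myh8 (perinatal myosin heavy chain), Mybpc1 and Mybpc2 (slow and fast myosin-binding protein C), Mypn (myopalladin of the Z-disc) and Myot (myotilin of the Z-disc). They had 15 to 29 counts over the 6 libraries and at most 0.161 CPM in any of them. At an adjusted p under 0.05, 18 of the 39 were called higher and 0 lower in starved cells (also 0 lower by DESeq2, by limma-voom and at p under 0.05 before adjustment), while 3.48% of the 16168 genes tested were called higher and 1.6% lower. Since these ratios chose the members, nothing is read from the difference. The count of 18 became 27 without passage 24, 12 without passage 26 and 10 without passage 27. Of all genes, 863, 328 and 271 were called higher in those fits, against 562 with all passages. The count became 0 when the passage was left out of the edgeR model, which then called 4 of all genes. The median log2 fold change was 1.38 over the 39 members and 0.00 over all genes tested.

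The starved culture was the higher one in every passage for 28 of the 39 tested and 32 of all 45 members, against 27.6% of all genes tested. Of the 39, 28 were higher in passage 24, 38 in passage 26 and 39 in passage 27, against 55.7%, 54.8% and 52.9% of all genes tested. The exceptions in passage 24 were Tnnt2, Myl1, Myh7, Smyd1, Tmod1, Xirp1, Ldb3, Myom1, Myoz2, Neb and Nebl, and in passage 26 Nebl. The median log2 ratio within a passage, with 0.5 counts added to each count, was 0.75 in passage 24, 1.98 in passage 26 and 1.54 in passage 27. The starved libraries lay above all fed libraries in 2 of the 39, Myom2 and Tcap, against 7.94% of all genes tested. In the other 37 the groups overlapped. In 35 of the 39 fed cells of passage 26 lay above starved cells of passage 24, against 52.2% of all genes tested.

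**Figure D1:**
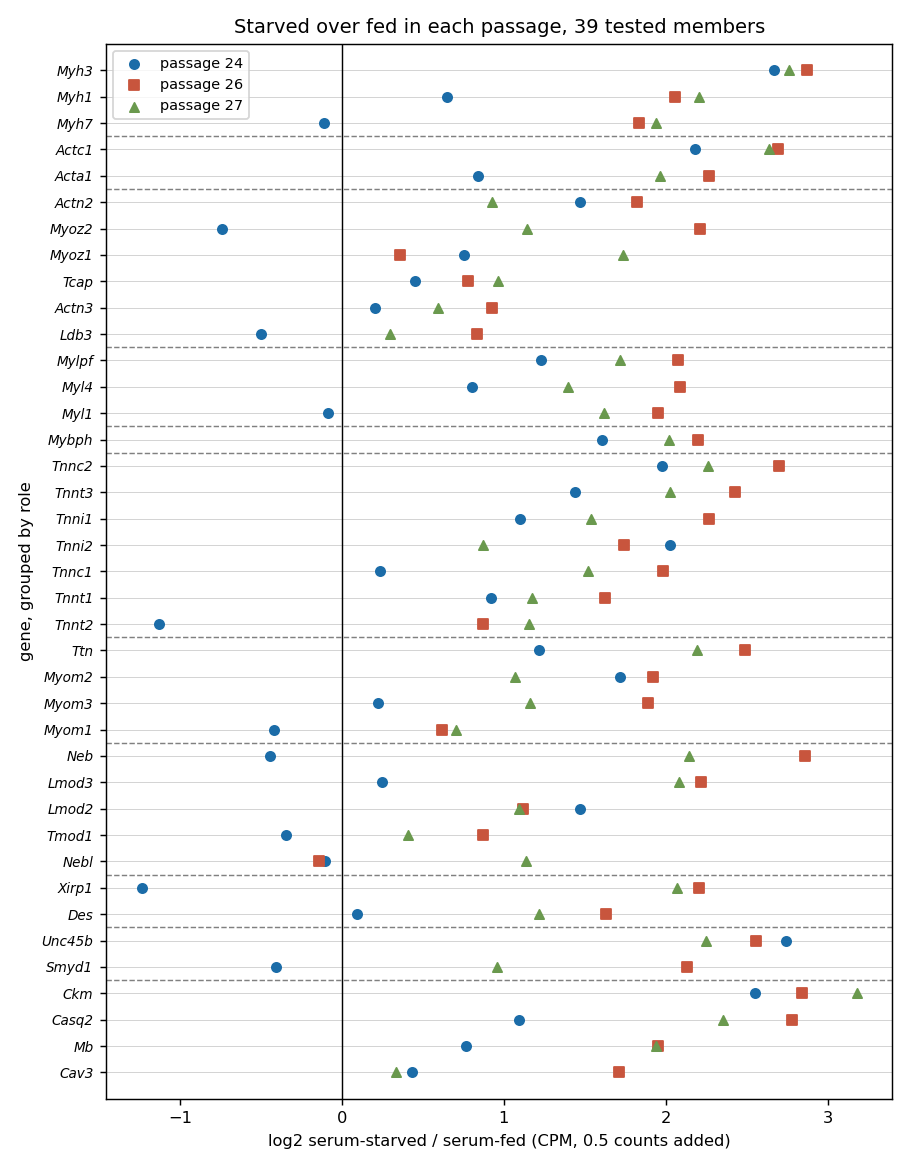
Log2 ratio of serum-starved over serum-fed CPM, with 0.5 counts added, for the 39 tested members (rows, grouped by role) in passage 24 (circles), 26 (squares) and 27 (triangles). In passage 24, 11 members lie left of 0, and in passage 27 all 39 lie right of it.

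The members differed between passages by as much as between conditions. From passage 24 to passage 26 the median log2 ratio of the 39 members was 2.26 in fed and 3.69 in starved cells, and over all genes tested it was 0.09 and 0.08. From passage 24 to passage 27 it was 1.18 in fed and 2.10 in starved cells, so the level did not climb with each passage: passage 26 lay above passage 27 by a median of 1.12 in fed and 1.55 in starved cells. The order passage 24, then 27, then 26 held for 28 of the 39 in fed and 34 of the 39 in starved cells, and for 12.4% and 21.7% of all genes tested. The highest library was starved passage 26 for 37 of the 39, with Nebl and Tcap the exceptions, and the lowest was fed passage 24 for 25 of them. Over all genes tested these shares were 18.0% and 29.3%. With 1 culture per passage and condition there is no test between passages, and passage cannot be told apart from the culture that carried it.

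**Figure D2:**
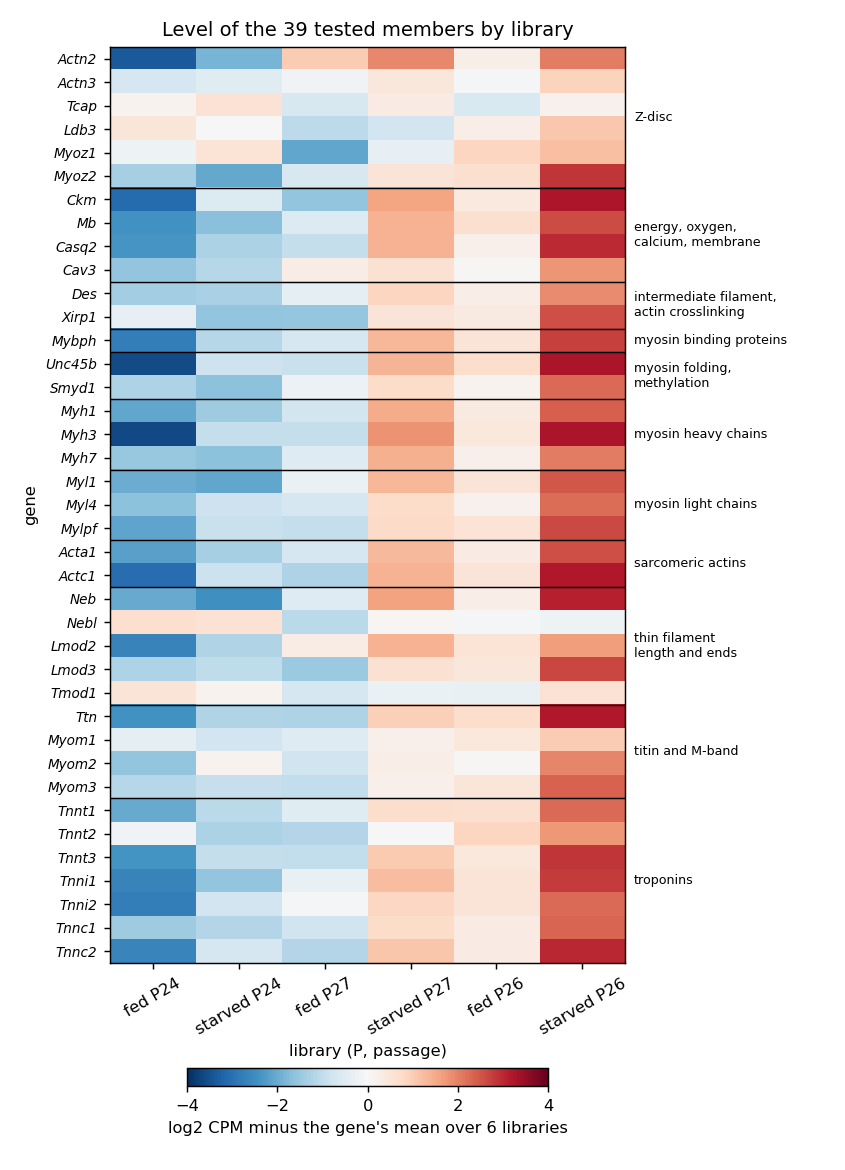
Log2 CPM of each tested member minus its mean over the 6 libraries (colour, blue below and red above the mean), with libraries as columns in the order passage 24, 27, 26 and genes as rows grouped by role. Starved passage 26 is the highest column for 37 of the 39 rows and fed passage 24 the lowest for 25.

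Myosin heavy chains carry the motor domain. Myh3, the embryonic heavy chain on chromosome 11 (67078300 to 67102291), was at 1.85, 30.04 and 11.7 CPM in fed cells of passages 24, 26 and 27 and at 11.8, 219.6 and 79.2 CPM in starved cells. The starved culture stood 6.37-fold, 7.31-fold and 6.79-fold above its fed partner, the most even set of ratios among the heavy chains, with a log2 fold change of 2.72 (SE 0.13). Myh1, a fast heavy chain of adult muscle on chromosome 11 (67200052 to 67224575), was at 0.333, 1.82 and 0.864 CPM in fed and 0.527, 7.60 and 4.00 CPM in starved cells. Its log2 fold change was 1.67 (SE 0.36), with the passage 24 pair the closest together. Myh7, the slow heavy chain of muscle and heart, held 0.128 to 1.74 CPM, and only in passage 24 was the fed culture not the lower one. Myh2 and Myh8 held no more than 0.0780 and 0.161 CPM in any library.

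Myh3, Myh2, Myh1 and Myh8 lie on chromosome 11 in GENCODE M21 between 67078300 and 67308634, all on the plus strand, with Myh4, which is no member, between Myh1 and Myh8. The levels of the members were far apart. Per exon length (CPM divided by kilobases of exon, RPKM), Myh3 made up 81.2% to 96.2% of the 5 heavy chains in each library and Myh1 3.18% to 14.0%. The share of Myh3 was 88.8% ± 6.60 (SD, n = 3) in fed and 95.2% ± 0.949 in starved cells, with fed passage 24 the lowest. Reads of near-identical genes can be lost or misplaced: 15.8% of the windows of 75 bases, the read length, in Myh1 transcripts also occur in other genes, most often Myh2, and 13.9% of those of Myh2, while 10.6% of those of Myh7 occur elsewhere, most often in Myh6, the other cardiac heavy chain. For Myh3 it was 1.84%.

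Light chains and myosin-binding proteins followed. Mylpf, the fast regulatory light chain on chromosome 7 (127208890 to 127214298), was at 4.25, 27.1 and 9.44 CPM in fed and 9.98, 114 and 31.0 CPM in starved cells of passages 24, 26 and 27, with a log2 fold change of 1.63 (SE 0.19). Per length of all annotated exons it had the highest mean of all members, 12.8 RPKM in fed and 48.8 RPKM in starved cells. In fed passage 24, Tnnc1 at 4.82 and Tnnt2 at 4.50 RPKM lay above its 4.00 RPKM. The rank depends on the length used: Tnnt2 has 7752 bases of annotated exon but 1200 in its transcript of longest coding sequence. Myl4, the essential light chain of embryonic muscle and atria, was at 2.63, 9.20 and 5.19 CPM in fed and 4.59, 39.1 and 13.6 CPM in starved cells, with a log2 fold change of 1.39 (SE 0.26). Myl1, the fast essential light chain, was at 0.667, 3.83 and 2.20 CPM in fed and 0.629, 14.8 and 6.76 CPM in starved cells. Its cultures of passage 24 were level, and those of the later passages were 3.86-fold and 3.07-fold apart. Of the windows of Myl1, 8.08% are shared, most often with the pseudogene Mylf-ps. Mybph, myosin-binding protein H of the thick filament, was at 1.14, 11.1 and 4.79 CPM in fed and 3.48, 51.1 and 19.4 CPM in starved cells, with a log2 fold change of 1.90 (SE 0.19).

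Both sarcomeric actins, which build the thin filament, behaved alike in direction. Acta1, skeletal alpha-actin on chromosome 8 (123891769 to 123894751), was at 3.14, 17.7 and 8.84 CPM in fed and 5.63, 85.1 and 34.5 CPM in starved cells, with a log2 fold change of 1.66 (SE 0.27). Actc1, cardiac alpha-actin, which developing skeletal muscle also uses, was on chromosome 2 (114047282 to 114053548) and stood at 1.08, 12.9 and 3.80 CPM in fed and 4.95, 83.0 and 23.7 CPM in starved cells. Its log2 fold change was 2.47 (SE 0.18), and its ratios of 4.56-fold, 6.46-fold and 6.24-fold lay above those of Acta1 in every passage. Per exon length Actc1 took 31.5% ± 8.37 (SD, n = 3) of the 2 in fed and 44.3% ± 4.43 in starved cells. Both sequences printed above hold a CArG box and a TATAAA match. The TATAAA match began at −7 in Acta1 and at 33 in Actc1, where it lies after the listed start.

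**Figure D3:**
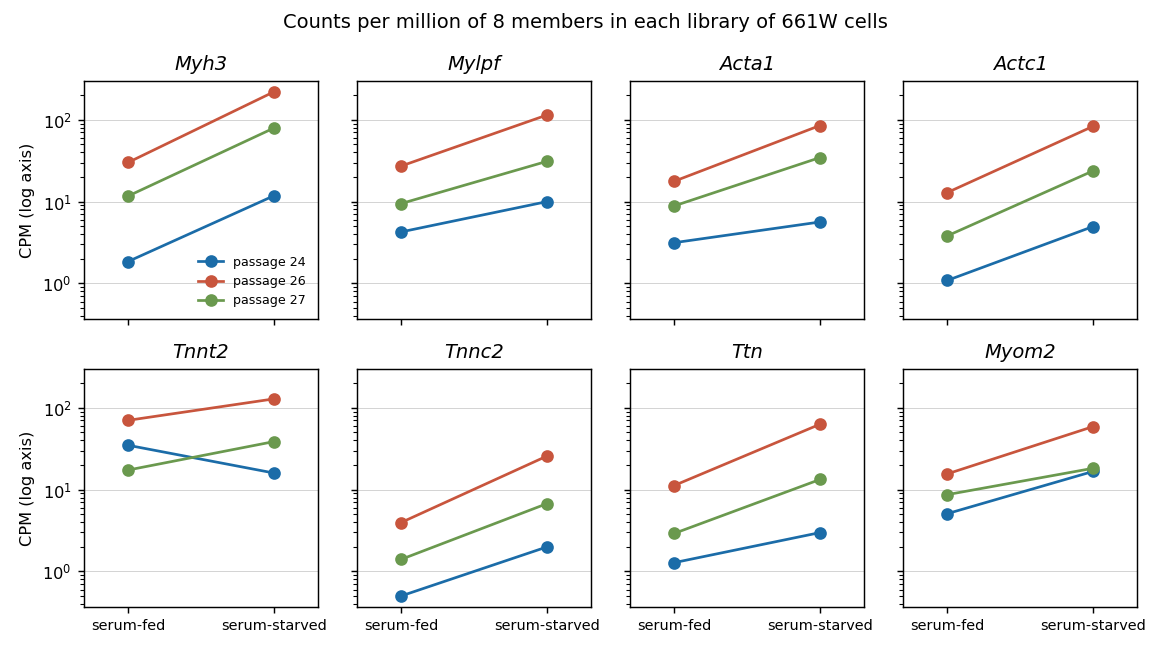
CPM on a log axis of 8 members (panels) in serum-fed and serum-starved cells, with a line for each passage. Lines of passage 26 are highest in every panel, and Tnnt2 alone of the 8 has a line that falls, from 34.9 to 16.0 CPM in passage 24.

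Of 7 troponin genes, 6 were higher in the starved culture of every passage. Troponin T binds the complex to tropomyosin. Tnnt3, its fast form, was at 1.32, 9.28 and 3.47 CPM in fed and 3.58, 49.8 and 14.2 CPM in starved cells, with a log2 fold change of 1.93 (SE 0.23). Tnnt1, the slow form, was at 0.987, 6.19 and 2.85 CPM in fed and 1.88, 19.1 and 6.46 CPM in starved cells, a smaller spread between conditions (log2 fold change 1.20, SE 0.23). Tnnt2, the cardiac form, on chromosome 1 (135836354 to 135852260), was at 34.9, 70.3 and 17.3 CPM in fed and 16.0, 129 and 38.6 CPM in starved cells. It went against the others: its fed culture of passage 24 was higher than the starved one and higher than the fed culture of passage 27, and its log2 fold change of 0.27 had an SE of 0.41. Without passage 24 its log2 fold change was 0.97. Per length of all annotated exons, Tnnt2 took 77.8% of troponin T in fed cells of passage 24 and 29.2% in starved cells of passage 26, and Tnnt3 14.4% and 55.5%. Which form leads depends on the length used: with the transcript of longest coding sequence in place of all exons, Tnnt2 held 93.1% and 62.5%, and Tnnt3 3.92% and 26.9%.

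Troponin I, the inhibitory subunit, was measured in its slow form, Tnni1, at 1.32, 12.3 and 6.89 CPM in fed and 2.84, 59.1 and 20.0 CPM in starved cells, with a log2 fold change of 1.61 (SE 0.24). Tnni2, the fast form, was at 0.528, 5.23 and 3.54 CPM in fed and 2.17, 17.5 and 6.48 CPM in starved cells. Its ratio was widest in passage 24, at 4.11-fold, and narrowest in passage 27, at 1.83-fold, an order not seen in Tnni1, and its log2 fold change was 1.47 (SE 0.28). Troponin C, the calcium sensor, has a slow and cardiac form, Tnnc1, which was at 5.02, 16.9 and 7.71 CPM in fed and 5.91, 66.6 and 22.2 CPM in starved cells. The fast form Tnnc2 was at 0.50, 3.95 and 1.40 CPM in fed and 1.99, 25.7 and 6.73 CPM in starved cells, with a log2 fold change of 2.29 (SE 0.24), above that of Tnnc1 at 1.21 (SE 0.32). The share of Tnnc2 in troponin C per exon length was 18.0% ± 6.03 (SD, n = 3) in fed and 30.8% ± 2.56 in starved cells. Tnni1 and Tnnt2 are both on chromosome 1, and Tnni2 and Tnnt3 lie close on chromosome 7, at 142441808 to 142444410 and 142498836 to 142516009.

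**Figure D4:**
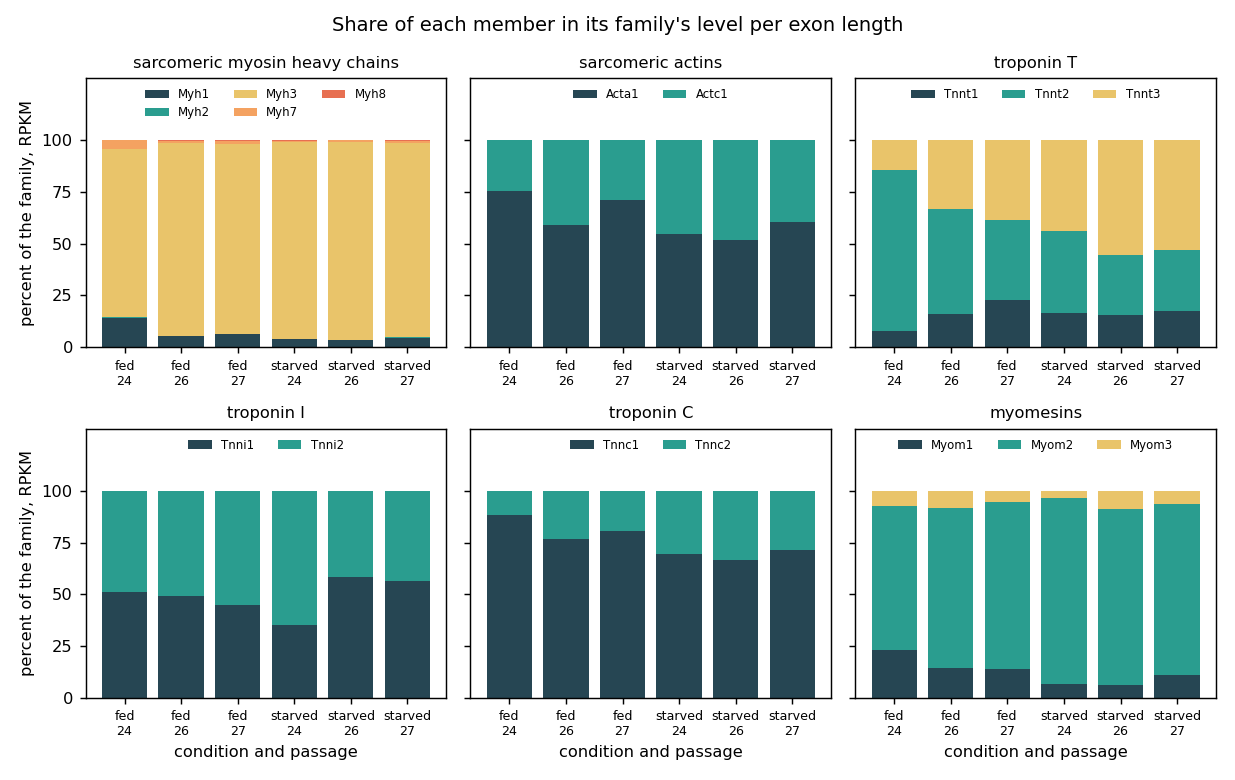
Share of each member in the level per exon length (RPKM) of its family, as stacked bars that add up to 100% in each of the 6 libraries. Myh3 fills 81.2% to 96.2% of the myosin heavy chains, and the share of Tnnt3 in troponin T runs from 14.4% in fed passage 24 to 55.5% in starved passage 26.

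Titin and the M-band proteins came next. Ttn, which encodes the spring that spans from Z-disc to M-band, was at 1.28, 11.2 and 2.91 CPM in fed and 2.98, 62.9 and 13.3 CPM in starved cells, with a log2 fold change of 1.95 (SE 0.26). With 116825 bases of annotated exon its mean level per exon length was only 0.0439 RPKM in fed and 0.226 RPKM in starved cells. Myom2, the myomesin of fast fibres, was at 5.07, 15.5 and 8.67 CPM in fed and 16.7, 58.9 and 18.2 CPM in starved cells, and its lowest starved library lay above its highest fed one (log2 fold change 1.51, SE 0.20). Myom1, the common myomesin, was at 1.97, 3.35 and 1.77 CPM in fed and 1.48, 5.15 and 2.89 CPM in starved cells, with overlapping groups and a log2 fold change of 0.26 (SE 0.30). Myom3, another myomesin, was at 0.361, 1.11 and 0.406 CPM in fed and 0.424, 4.13 and 0.918 CPM in starved cells. Myom2 took 75.99% ± 5.6 (SD, n = 3) of the 3 per exon length in fed and 85.9% ± 3.65 in starved cells.

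Of 5 proteins that set the length of the thin filament or cap its ends, 2 were higher in the starved culture of every passage. Neb, the giant ruler nebulin, was at 0.264, 1.29 and 0.746 CPM in fed and 0.193, 9.37 and 3.32 CPM in starved cells, and its ratio in passage 26, 7.28-fold, was close to that of Myh3, while in passage 24 its starved culture was the lower one. The SE of its log2 fold change of 1.74 was 0.58. Lmod3, a leiomodin that nucleates actin at pointed ends, was at 0.431, 1.42 and 0.367 CPM in fed and 0.514, 6.63 and 1.57 CPM in starved cells. Lmod2, its cardiac relative, held 0.0139 to 0.416 CPM. Tmod1, the tropomodulin that caps pointed ends, was at 7.54, 4.32 and 3.37 CPM in fed and 5.94, 7.89 and 4.46 CPM in starved cells. Like Ldb3, Tcap and Nebl, it was higher in fed passage 24 than in fed passage 26. Nebl, nebulette of the cardiac Z-disc, whose gene also gives a form of nonmuscle cells, was at 1.70, 1.01 and 0.498 CPM in fed and 1.58, 0.910 and 1.10 CPM in starved cells.

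Of the Z-disc members, 6 were counted often enough to be tested. Actn3, the alpha-actinin of fast fibres, was at 1.63, 2.55 and 2.36 CPM in fed and 1.88, 4.85 and 3.56 CPM in starved cells, with a log2 fold change of 0.52 (SE 0.26). Ldb3, which encodes a Z-disc adaptor with PDZ and LIM domains, was at 2.64, 2.25 and 0.904 CPM in fed and 1.86, 4.03 and 1.11 CPM in starved cells, with the smallest log2 fold change of the 39, 0.16 (SE 0.32). The others were rare. Actn2, the alpha-actinin of slow and cardiac muscle, held 0.0139 to 0.871 CPM, Myoz2, calsarcin of slow and cardiac muscle, 0.0642 to 2.13 CPM, Myoz1, its fast relative, 0.0262 to 0.312 CPM, and Tcap, the cap of titin, 0.0786 to 0.193 CPM. Tcap was the only one of the 39 with its highest value in starved passage 24.

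Proteins around the sarcomere were mixed. Des, desmin of the muscle intermediate filaments, was at 2.14, 6.84 and 4.44 CPM in fed and 2.29, 21.1 and 10.3 CPM in starved cells, with a log2 fold change of 0.95 (SE 0.31). Xirp1, an actin-binding protein of muscle cell junctions, was at 1.46, 2.40 and 0.629 CPM in fed and 0.617, 11.1 and 2.66 CPM in starved cells. It had the widest disagreement between passages, with a log2 ratio of −1.23 in passage 24 and 2.21 in passage 26. Unc45b, the chaperone that folds muscle myosin, was at 0.111, 2.29 and 0.760 CPM in fed and 0.784, 13.5 and 3.64 CPM in starved cells, with a log2 fold change of 2.45 (SE 0.26). Smyd1, a muscle methyltransferase that acts with that chaperone on myosin, was at 1.57, 4.13 and 3.16 CPM in fed and 1.18, 18.1 and 6.15 CPM in starved cells, and its passage 24 pair ran the other way.

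Among genes of energy, oxygen, calcium and membrane, Ckm, the muscle creatine kinase, had the largest fitted log2 fold change of the 39, 2.96 (SE 0.41), at levels of 0.0139, 0.228 and 0.0524 CPM in fed and 0.116, 1.68 and 0.528 CPM in starved cells. It rests on 206 counts over the 6 libraries. Casq2, calsequestrin, which stores calcium in the reticulum of slow and cardiac muscle, was at 0.639, 3.86 and 1.73 CPM in fed and 1.37, 26.5 and 8.86 CPM in starved cells, with a log2 fold change of 2.09 (SE 0.34). Mb, myoglobin, was at 0.292, 2.53 and 1.10 CPM in fed and 0.501, 9.84 and 4.23 CPM in starved cells, with a log2 fold change of 1.58 (SE 0.32). Cav3, the caveolin of the muscle membrane, was at 0.417, 1.31 and 1.55 CPM in fed and 0.565, 4.32 and 1.95 CPM in starved cells, and its passage 24 and 27 pairs were 1.36-fold and 1.26-fold apart.

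Other genes of the myofibril, a list of 34 that holds no member, were counted beside these. Like the other lists, it was chosen with earlier results of these data known, so its calls are not an independent test. Of 29 tested, 3 rose and 0 fell in edgeR at an adjusted p under 0.05 (13 and 2 at p under 0.05 before adjustment, 3 and 1 by DESeq2, 3 and 0 by limma-voom), with a median log2 fold change of 0.59. Klhl40, which stabilises thin filament proteins, rose (log2 fold change 2.94, SE 0.45, adjusted p = 0.0162 from edgeR), from 0.0278, 0.161 and 0.0393 CPM to 0.154, 1.13 and 0.528 CPM. Pdlim3, a Z-disc adaptor, rose (log2 fold change 1.63, SE 0.32, adjusted p = 0.0348 from edgeR), from 1.04, 6.54 and 5.91 CPM to 3.07, 39.05 and 11.2 CPM. Smpx, a small muscle protein, rose (log2 fold change 2.49, SE 0.55, adjusted p = 0.0475 from edgeR) at levels of at most 0.624 CPM. Trim63, a ubiquitin ligase of muscle wasting, had a log2 fold change of 1.94 with an adjusted p = 0.0573 from edgeR. Without passage 24 the count was 6, and without passage 26 or 27 it was 1: Klhl40 had an adjusted p = 0.0539 from edgeR without passage 27, Pdlim3 0.108 without passage 26, and Smpx was filtered out in both. Myh6, Myl2 and Tnni3, heavy chain, light chain and troponin I of the heart, are in that list and did not pass.

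Factors that control muscle genes, and genes of cell fusion, were counted next. Of 12 tested, 6 rose and 0 fell in edgeR, as in DESeq2 and limma-voom (6 and 1 at p under 0.05 before adjustment), and 4 of them were called whichever passage was left out. Myog, myogenin, rose from 2.36, 31.5 and 10.6 CPM in fed to 8.08, 148 and 53.3 CPM in starved cells (log2 fold change 2.07, SE 0.16, adjusted p = 0.00310 from edgeR), with the same order of the passages as Myh3. Tmem8c, the membrane fusion protein myomaker, rose from 0.681, 7.59 and 2.67 CPM to 2.15, 36.8 and 11.4 CPM (log2 fold change 1.97, SE 0.21, adjusted p = 0.00495 from edgeR). Msc, a repressor of myogenic factors, rose by log2 2.72 (SE 0.22, adjusted p = 0.00310 from edgeR). Myod1, the factor MyoD, did not pass: it was at 38.9, 32.2 and 24.6 CPM in fed and 8.68, 58.7 and 27.98 CPM in starved cells of passages 24, 26 and 27, with a log2 fold change of −0.37 (SE 0.52). Of 16 tested genes of the muscle acetylcholine receptor and of calcium coupling, 6 rose and 0 fell in edgeR (8 and 0 by DESeq2, 7 and 0 by limma-voom, 9 and 0 at p under 0.05 before adjustment), a count that was 8 without passage 24, 2 without passage 26 and 3 without passage 27. Chrng, the fetal gamma subunit of the receptor, rose in each of these fits (log2 fold change 2.25, SE 0.22, adjusted p = 0.00438 from edgeR with all passages).

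Contractile genes of other cell types were counted in the same way. Of 21 nonmuscle contractile genes, 0 rose and 2 fell in edgeR (0 and 8 at p under 0.05 before adjustment, 0 and 7 by DESeq2, 0 and 2 by limma-voom), with a median log2 fold change of −0.27. Actn1, the nonmuscle alpha-actinin, was one that fell (log2 fold change −0.61, SE 0.13, adjusted p = 0.0441 from edgeR). It was not called without passage 26 (adjusted p = 0.197 from edgeR) or without passage 27 (0.147), and the list gave 0 calls in either fit. Of 11 tested smooth muscle genes 0 rose and 0 fell in edgeR (1 and 2 at p under 0.05 before adjustment, 1 and 1 by DESeq2, 0 and 1 by limma-voom). Without passage 27, Cnn1 was called lower (adjusted p = 0.0323 from edgeR). The sum over the smooth muscle list, 3611, 1845 and 872 CPM in fed and 3469, 1611 and 1034 CPM in starved cells, was highest in passage 24, where the members were lowest. Acta2 and Tagln held most of that sum, at 2106 and 1163 CPM in fed passage 24. Mylk ran the other way, at 7.45, 28.1 and 52.3 CPM in fed and 9.26, 119 and 70.7 CPM in starved cells. Myh11, at most 0.883 CPM, was also lowest in passage 24 within each condition. Of 6 tested cardiac genes, 0 rose and 1 fell in edgeR, with a median log2 fold change of 0.40. It was 3 and 1 at p under 0.05 before adjustment, and 0 and 1 by DESeq2 and by limma-voom. Myh6, Myl2 and Tnni3 of the other myofibril list are counted here too. Nppb, natriuretic peptide B, was the gene that fell (log2 fold change −2.57, SE 0.53, adjusted p = 0.0409 from edgeR). It was not called without passage 26 (adjusted p = 0.0558 from edgeR) or without passage 27 (0.0926) and was filtered out without passage 24.

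Markers of other cell types were counted too. Among 4 tested retinal ganglion cell markers, 0 passed in edgeR, DESeq2 or limma-voom, and 0 had p under 0.05 in edgeR before adjustment. Of 11 tested fibroblast markers 6 rose and 1 fell in edgeR (0 fell without passage 26 or without passage 27), and their sum over 12 genes was 4090 to 5221 CPM in fed and 4849 to 8886 CPM in starved cells. Of 6 tested Müller glia markers, 2 rose and 1 fell (2 and 0 without passage 24, 1 and 0 without passage 27), and Aqp4, a defining one, had 0 counts in every library. The summed endothelial and macrophage markers were highest in fed passage 24, at 25.2 and 14.6 CPM against 2.49 to 12.8 CPM and 2.40 to 4.53 CPM in the other libraries, and 0 of 5 tested passed in edgeR (4 at p under 0.05 before adjustment, 2 by DESeq2 and 1 by limma-voom). A single gene made up most of each sum, Kdr with 24.8 CPM and Cd68 with 13.5 CPM in that library, while Tek and Aif1, other markers of the same lists, were highest in starved passage 27, at 0.769 and 0.562 CPM. Without passage 24, Tek was called higher (adjusted p = 0.0447 from edgeR). The part of these cell types in the levels of the members was not tested.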

How the data were processed

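RNA was extracted from 661W cells at passages 24, 26 and 27, with 1 serum-fed culture and 1 culture starved of serum for 72 h at each. PolyA-selected stranded libraries were sequenced as single-end reads of 75 bases on 4 lanes. The authors aligned the reads to GRCm38/mm10 with STAR and deposited raw counts per gene, made by HTSeq under a UCSC gene model with its union rule and reverse strand setting, without normalization. Tool versions are not stated in the sources used here. Counting by strand is meant to keep reads of antisense genes apart, and reads that fit several genes are not counted. In GENCODE M21, antisense exons overlap 74% of the exon bases of Tnnc2 (Ube2c) and 49.9% of those of Mybph (Adora1). These are the largest such shares among the members, and reads assigned to the wrong strand were not measured. The authors also deposited a DESeq2 comparison with log2 fold changes and p-values, which was not used. Of 38803 rows, 27 had names turned into dates and were left out (0.223% to 0.301% of counts).

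Groups and passages came from the sample labels. Libraries of the same passage were paired: the labels call the passages independent experiments, and after removal of condition means log2 CPM correlated within passages at 0.675, 0.272 and 0.605, against at most 0.251 across passages. The test was the quasi-likelihood F-test of edgeR on counts (TMM, filterByExpr, passage as a block, biological coefficient of variation 0.200) on 16168 genes, with Benjamini-Hochberg adjustment over all of them and a threshold of 0.05. Level per length is CPM per kilobase of merged GENCODE M21 exons, an annotation other than the one the authors counted with. Shared windows of 75 bases come from GENCODE M21 transcripts. Protein identity was not analysed here. The alternatives were a model without the passage, DESeq2, limma-voom, scaling by RLE or by library totals, no filter, 10 counts in every library, leaving out each passage, and a threshold of 0.01.

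The members and gene lists were chosen with earlier results of these data known. Values in every library are given for members with a mean of 1 CPM in either condition, and of other lists up to 4 tested genes with the smallest p are named. Arr3, Aqp4, Myod1, Acta2, Tagln, Mylk, Myh11, Kdr, Cd68, Tek and Aif1 were named after their values were seen. A few of the genes so named are not reported here. R 4.3.3, edgeR 4.0.16, limma 3.58.1, DESeq2 1.42.0, Python 3.11.15, pandas 2.3.3 and matplotlib 3.10.9 were used.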

Additional observations from a re-analysis of the deposited data

How the results depend on the processing

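Without the replicate block, that is without the passage in the model, 0 members were called higher in edgeR and 0 in DESeq2, as were 0 and 0 of the other myofibril genes and 1 and 1 of the myogenic and fusion genes, while the median log2 fold change of the members was 1.64 and 1.67. Of all genes, edgeR then called 4 higher and 0 lower among 15660, and DESeq2 289 higher and 48 lower among 24541. At an adjusted p under 0.01, 7 members and 0 other myofibril genes were called higher, against 0.73% of all genes tested. Leaving out each passage in turn gave 10 to 27 members called higher, 1 to 6 other myofibril genes higher and 0 to 1 lower, and a median of 1.07 to 1.72. Over all genes, 863 of 15762 were called higher without passage 24, 328 of 15754 without passage 26 and 271 of 15778 without passage 27. With all passages it was 562 of 16168. The other myofibril genes gave 6 higher and 1 lower with no filter, 1 higher with 10 counts in every library, and 1 lower in DESeq2 with the replicate block. In the other fits of all 6 libraries with the passage in the model, 16 to 23 members were called higher and 0 lower. The same fits called 450 to 1144 of all genes higher. Of 32 members with a mean of 1 CPM, 28 had a log2 fold change above 0 in every fit that held them, which was all 12 except for Unc45b, filtered out at 10 counts in every library, and Tnnt2, Tmod1, Nebl and Ldb3 were below 0 without passage 26 or without passage 27, where they were not called. The cause of these changes was not tested. Length changed the shares within troponin T, the myosin light chains and troponin I, and less within the other families, an alternative chosen after seeing the data. With 1 transcript a gene the mean share of Mylpf was 65.6% in fed and 69.9% in starved cells, against 83.0% and 85.9% over all exons. Tnni1 then held 57.7% and 53.1% of troponin I in fed passages 26 and 27, against 49.4% and 44.8% over all exons, so the leading form changed there. With 3 cultures a condition and passages that differ as much as conditions, small changes of single members are not resolved, and members under 0.25 CPM rest on few reads.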
